A study of Homo sapiens with 4 samples.

Results

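BCL6 and 6 genes that act with it or beside it were read in leukemia cells with and without knockdown of LDB1, a cofactor that bridges DNA-bound transcription factor complexes. The group consists of BCL6, BCL6B, BACH2, PRDM1, BCOR, BCORL1 and NCOR1, which are 7 of the 28412 genes measured, each found by its gene symbol. The group was chosen by the difference in BCL6 FPKM between sh-LDB1 and sh-NC, so the levels of BCL6 are given as a description without a test. The other 6 genes entered by name, but they and the gene lists below were chosen with earlier results of these data known. RNA-seq was performed on 4 libraries of total RNA from human cells labelled as the cell line NB4. NB4 derives from an acute promyelocytic leukemia, but the markers given below were low for promyelocytic cells and high for erythroid ones. The 2 control libraries (sh-NC) are labelled as an untreated control genotype, and the 2 knockdown libraries (sh-LDB1) carry the LDB1 knockdown genotype. The methods of the study describe infection with lentiviral shRNA vectors followed by puromycin selection, and do not separate the arms. More than 1 LDB1 shRNA was designed, and which of them was sequenced is not given in the sources used here. All values are from 1 cell line, and nothing in the labels says that the 2 libraries of an arm came from separate cultures, so p-values measure only the spread between these libraries, which may be technical.

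BCL6 is a transcriptional repressor with an N-terminal BTB domain and C-terminal zinc fingers, best known for holding germinal center B cells in their proliferating state. Its BTB domain recruits the corepressors NCOR1 and BCOR, and these bring histone deacetylases or a polycomb complex to the target gene. BCL6B is the closest relative of BCL6 and shares its zinc finger type. PRDM1 (BLIMP1) and BCL6 repress each other in B cells, and BACH2 is a further repressor of PRDM1. BCL6 is also expressed in myeloid and T cells, and its zinc fingers recognise a DNA motif that resembles the binding site of STAT proteins.

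The libraries held between 14634850 and 16967264 reads assigned to genes, as recovered from the steps of the deposited FPKM values (fragments scaled to transcript length and library size), and between 12910 and 13443 genes reached 1 FPKM. LDB1 was at 135 and 120 FPKM under sh-NC, against 10.2 and 9.47 FPKM under sh-LDB1, that is 7.73% of the control mean (log2 difference -3.56 ± 0.08 SE, n = 2 per group, limma adjusted p = 6.93e-05). Of the 13300 genes whose mean reached 1 FPKM, 1264 were called higher and 1371 lower in sh-LDB1, where a call needs an adjusted p under 0.05 and a fold change above 2 or below 0.5. Scaling the libraries to equal summed FPKM moved the median log2 difference of all genes from -0.08 to 0.06, and the share of calls that were lower from 52.0% to 38.5%. The promyelocytic label was checked against marker genes. The 6 promyelocytic markers listed with values summed to 6.17 and 5.06 FPKM under sh-NC, against 12.7 and 10.2 FPKM under sh-LDB1. ELANE, which encodes neutrophil elastase, was listed at 0 in 3 of the 4 libraries. MPO and CTSG were not listed, and whether they had no reads or were left out cannot be told. Of the 4 promyelocytic markers tested, 1 was called higher and 0 lower, beside 9.5% and 10.3% of all genes tested. By adjusted p alone 2 were higher and 0 lower, beside 29.9% and 37.4%. The called gene, named after its values were seen, was PRTN3 (log2 difference 1.42, limma adjusted p = 0.000661). AZU1 was higher at 0.94 and not called, although it was with equal summed FPKM (1.06) and voom (1.26), among others. CD33 was higher at 0.32 and not called. CEBPE went the other way at -0.58 (limma adjusted p = 0.081) and was not called, although it was with voom (-1.27). MS4A3, which was not tested, was at 0.472 and 0.0971 FPKM under sh-NC and at 0 under sh-LDB1. The 13 erythroid markers summed to 4114 and 4274 FPKM under sh-NC, against 461 and 424 FPKM under sh-LDB1. All 12 that were tested were called lower, beside 10.3% of all genes tested. EPOR and TFRC lost their calls with equal summed FPKM (-0.88 and -0.94) and quantile scaling (-0.94 and -0.93). EPOR stood at -0.98 without sh-NC replicate 1. HBZ, the embryonic zeta globin gene, was the highest of the 13 at 1543 and 1600 FPKM in sh-NC. The libraries labelled NB4 therefore carried erythroid transcripts at a high level, and promyelocytic markers at a low one. The study states that its cell lines were authenticated, and the identity of the cells in these libraries was not tested here. The levels of BCL6 and the other genes are thus not read as those of promyelocytic cells. In bulk RNA, fewer cells of a type and less RNA per cell cannot be told apart.

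The BCL6 start site is shown because its first exon and promoter hold motif matches of the kind bound by STAT proteins and by BCL6 itself. The stretch is read on the minus strand of chromosome 3 (RefSeq, GRCh38.p14) at chr3:187745439-187745568, and the capitals mark matches to TTCNNNGAA, which reads the same on both strands.

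BCL6 start site: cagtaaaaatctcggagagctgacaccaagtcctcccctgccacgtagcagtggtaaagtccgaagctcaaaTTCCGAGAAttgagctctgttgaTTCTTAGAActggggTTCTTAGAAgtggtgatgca

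The 3 matches shown lie at -28 to -20, -5 to 3 and 10 to 18, counted from 0 at the first transcribed base. A further match, at 36 to 44, lies downstream of the stretch. RefSeq promoter windows of 300 bases, from 250 before to 50 after a start site, were matched for 6 of the 7 genes, with 11 windows in all. TTCNNNGAA occurred in 2 of these 11 windows, one of BCL6 and one of NCOR1, against 7.66% of all 35116 windows. At least 4 matches in 1 window, a count chosen after the BCL6 window was seen, occurred in 7 of the 35116 windows (0.0199%). The E-box CANNTG, also the same on both strands, occurred in 6 of the 11 windows, and in 68.7% of all windows. The GATA motifs AGATAA and TGATAA, searched on both strands because LDB1 works with GATA1 and TAL1 in erythroid cells, occurred in 0 of the 11 windows, and in 10.3% and 7.53% of all windows. A match is a stretch of letters and not a measured binding site.

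**Figure D1:**
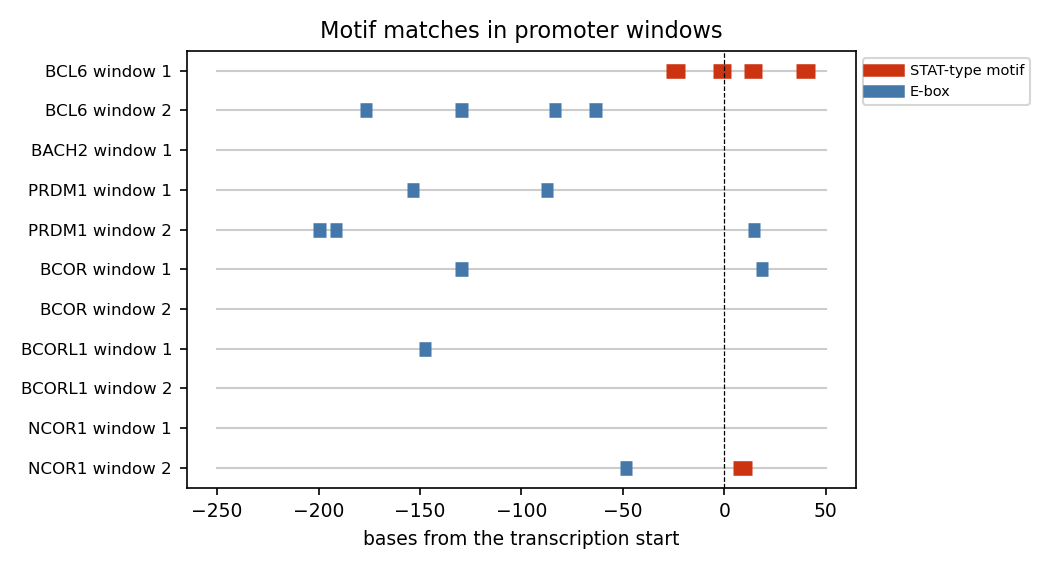
Positions of the motif TTCNNNGAA (STAT-type, red) and the E-box CANNTG (blue) in the 11 promoter windows of 6 genes, in bases from the transcription start (dashed line). The 4 STAT-type matches of the first BCL6 window lie around and after the start, and its second window holds E-boxes only.

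BCL6 was measured at 2.85 and 2.93 FPKM under sh-NC, against 32.3 and 32.2 FPKM under sh-LDB1. Both knockdown libraries lay far above both controls, and the libraries of 1 arm were almost equal. The mean went from 2.89 ± 0.06 to 32.3 ± 0.09 FPKM (SD, n = 2), an 11.2-fold difference, and the recovered reads were 274 and 257 against 3076 and 2894. On the log2(FPKM + 1) scale, which understates the change of low genes, the difference was 3.10, and 26 of the 13300 genes had a higher one. Among all genes BCL6 stood at the 66.8 and 67.2 percentile of the sh-NC libraries and at the 95.1 percentile of both sh-LDB1 libraries. The BCL6 gene (ENSG00000113916) spans 187721377 to 187745725 of chromosome 3, minus strand (GRCh38).

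BCL6B (ENSG00000161940), the closest relative, differed in the other direction. Its level was 7.50 and 6.92 FPKM under sh-NC, against 2.70 and 2.10 FPKM under sh-LDB1, with 531 and 446 reads against 189 and 139. The knockdown libraries both lay below the controls, at 33.3% of the control mean (7.21 ± 0.42 against 2.40 ± 0.42 FPKM, SD, n = 2). The log2 difference was -1.28 (95% interval -1.57 to -0.98, limma adjusted p = 0.000809), which is a call. It did not pass a test against the fold change of 2 itself (limma treat, adjusted p = 0.252). The ratio of BCL6 to BCL6B was 0.380 and 0.424 under sh-NC, against 11.99 and 15.3 under sh-LDB1, so that the relative with the higher level was BCL6B in the controls and BCL6 in the knockdown. BCL6B lies on chromosome 17 from 7023050 to 7030290 on the plus strand.

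**Figure D2:**
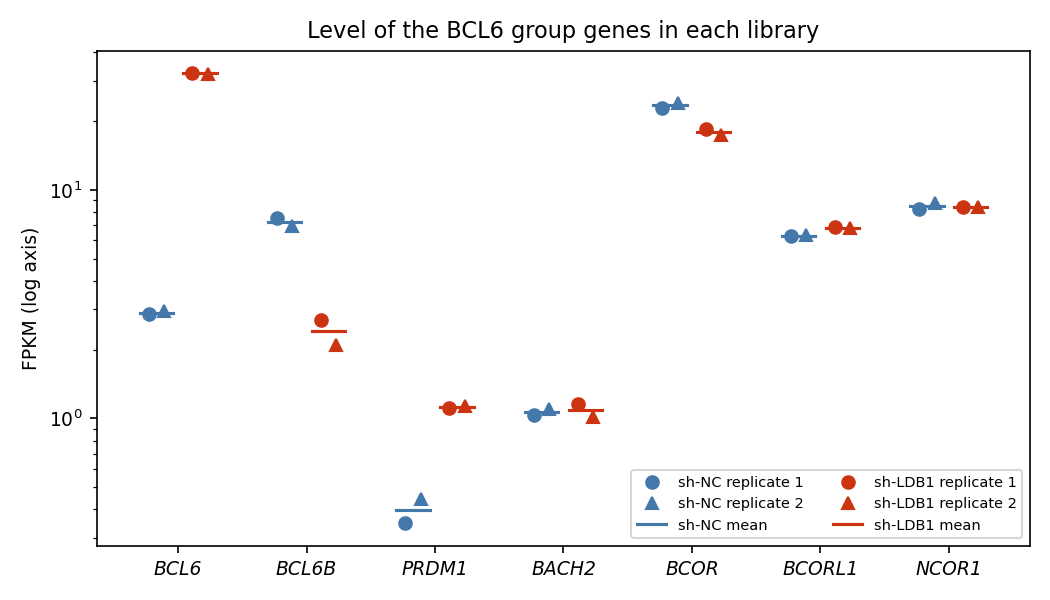
FPKM of each of the 7 genes in each library on a log axis; circles are replicate 1, triangles replicate 2, blue sh-NC and red sh-LDB1, and bars are the means of 2 libraries. BCL6 goes from the fifth to the first place of the 7, BCL6B and BCOR lie lower in sh-LDB1, and the libraries of BACH2 and NCOR1 overlap between the arms.

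PRDM1 (ENSG00000057657), which encodes the repressor that drives plasma cell differentiation, was low in every library; it lies on chromosome 6 from 105993463 to 106109939, plus strand. It was measured at 0.348 and 0.446 FPKM under sh-NC, against 1.11 and 1.14 FPKM under sh-LDB1, from 36, 42, 114 and 110 reads. Both knockdown libraries lay above both controls, with means of 0.397 ± 0.069 and 1.13 ± 0.02 FPKM (SD, n = 2), a ratio of 2.84. PRDM1 fell under the minimum mean of 1 FPKM and was fitted only without that filter. There the log2 difference was 0.61 ± 0.11 SE (limma adjusted p = 0.0264), short of the fold change that a call needs. The log2(FPKM + 1) scale understates the change of low genes, so this shortfall does not mean that the ratio of FPKM lay under 2. BCL6 and PRDM1 were thus both higher in sh-LDB1, and the ratio of BCL6 to PRDM1 went from 8.19 and 6.59 to 29.05 and 28.3.

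BACH2 (ENSG00000112182), which represses PRDM1 in B cells and competes with NFE2-type activators for MAF partners, was at 1.04 and 1.10 FPKM under sh-NC, against 1.15 and 1.01 FPKM under sh-LDB1. The gene spans 89926528 to 90296843 of chromosome 6, minus strand. The arms overlapped. The log2 difference was 0.01 (95% interval -0.35 to 0.37, limma adjusted p = 0.954), and it turned to -0.0902 with quantile scaling. Its relative BACH1, the heme-regulated repressor, was at 9.91 and 10.8 FPKM under sh-NC, against 11.95 and 10.2 FPKM under sh-LDB1. The ratio of BACH1 to BACH2 lay between 9.57 and 10.4 in the 4 libraries.

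The corepressors differed less between the arms than BCL6. BCOR (ENSG00000183337), which links BCL6 to a polycomb complex, was at 22.9 and 23.9 FPKM under sh-NC, against 18.4 and 17.4 FPKM under sh-LDB1. The knockdown libraries were lower than both controls, at 76.4% of the control mean (23.4 ± 0.74 against 17.9 ± 0.68 FPKM, SD, n = 2), with a log2 difference of -0.37 (95% interval -0.51 to -0.23, limma adjusted p = 0.0036). The adjusted p passed and the fold change did not, so BCOR was not called. BCOR and BCORL1 both lie on the X chromosome, from 40049815 to 40177329 on the minus strand and from 129981107 to 130058071 on the plus strand. BCORL1 (ENSG00000085185), its relative in the same complex, was at 6.25 and 6.32 FPKM under sh-NC, against 6.86 and 6.80 FPKM under sh-LDB1. The arms did not overlap, but the log2 difference of 0.10 (95% interval -0.04 to 0.25) did not pass (limma adjusted p = 0.148). It passed with quantile scaling (0.20, adjusted p = 0.0253, limma) and with equal summed FPKM (0.25, adjusted p = 0.0128, limma). The ratio of BCOR to BCORL1 went from 3.66 and 3.79 to 2.68 and 2.56.

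NCOR1 (ENSG00000141027), the scaffold that activates HDAC3, was at 8.27 and 8.80 FPKM under sh-NC, against 8.44 and 8.38 FPKM under sh-LDB1. The arms overlapped, with a log2 difference of -0.02 (95% interval -0.17 to 0.13, limma adjusted p = 0.791), and its sign turned with quantile scaling (0.0925) and equal summed FPKM (0.14). NCOR1 lies on chromosome 17 from 16029065 to 16218185, minus strand. Exact permutation of 2 against 2 libraries cannot give a p below 0.333, and the ratios between genes were not tested.

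Over the group, 6 of the 7 genes were tested, and 1 was called higher (BCL6) and 1 lower (BCL6B), against 19.8% of all genes tested. By adjusted p alone, 1 was higher and 2 were lower, against 67.4%. The libraries of the arms did not overlap for 4 of the 6, against 84.6%. Because BCL6 chose the group, nothing is read from these counts.

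**Figure D3:**
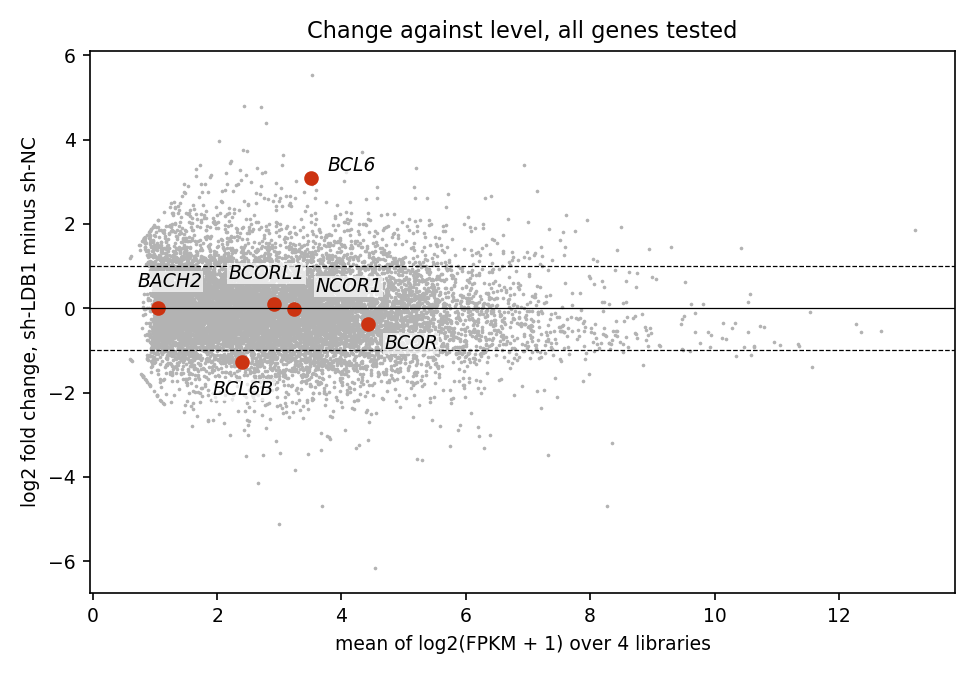
Log2 difference (sh-LDB1 minus sh-NC) against the mean of log2(FPKM + 1) over 4 libraries for all 13300 genes tested; red points are the 6 tested genes of the group and dashed lines mark a fold change of 2. BCL6 lies at 3.10 and BCL6B at -1.28, while BACH2, BCORL1, NCOR1 and BCOR lie between the dashed lines.

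Per length, the order in sh-NC was BCOR (23.4 FPKM), NCOR1 (8.53), BCL6B (7.21), BCORL1 (6.29), BCL6 (2.89), BACH2 (1.07) and PRDM1 (0.397), with no overlap between neighbours. In sh-LDB1 the order was BCL6 (32.3 FPKM), BCOR (17.9), NCOR1 (8.41), BCORL1 (6.83), BCL6B (2.40), PRDM1 (1.13) and BACH2 (1.08), where PRDM1 and BACH2 overlapped and no other neighbours did. The ratio of BCL6 to BCOR, a corepressor that binds its BTB domain, was 0.125 and 0.123 in the controls and 1.76 and 1.85 in the knockdown. These are ratios of transcripts, and protein was not measured in the files.

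The NCOR complex, NCOR1 included, had 0 of 7 tested genes called in either direction, beside 19.8% of all genes. By adjusted p alone 2 were higher and 2 lower, beside 29.9% and 37.4% of all genes. The median log2 difference was -0.02 beside -0.08 for all genes tested. HDAC3, the deacetylase of the complex, was at 32.9 and 32.1 FPKM under sh-NC, against 17.5 and 17.4 FPKM under sh-LDB1, a log2 difference of -0.86 (limma adjusted p = 0.000188) that stayed short of the fold threshold. GPS2, a further subunit, was at 1.72 and 0.439 FPKM against 2.75 and 2.76 FPKM (0.92, limma adjusted p = 0.06), and was called with equal summed FPKM (1.03), with voom (1.60) and without sh-NC replicate 1 (1.38). Since no gene of the complex was called, HDAC3 and GPS2 were chosen after their values were seen, as were the genes named in the next paragraph.

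The BCOR complex, a form of polycomb repressive complex 1, BCOR and BCORL1 included, likewise had 0 of 11 tested genes called, beside 19.8% of all genes. By adjusted p alone 4 were higher and 3 lower, beside 29.9% and 37.4% of all genes, and the median was 0.03. RING1, one of its ubiquitin ligases, was at 41.1 and 36.1 FPKM under sh-NC, against 74.7 and 72.3 FPKM under sh-LDB1 (log2 difference 0.91, limma adjusted p = 0.000624), and was called with equal summed FPKM (1.08), with quantile scaling (1.07) and without sh-NC replicate 1 (1.00). USP7, a deubiquitinase of the complex, was at 16.7 and 16.5 FPKM against 10.7 and 9.58 FPKM (-0.66, limma adjusted p = 0.00116). Of the other BCL6 partners and deacetylases, 9 of 11 were tested and 0 were called, beside the same 19.8%. By adjusted p alone 2 were higher and 5 lower, beside the same 29.9% and 37.4%, and the median was -0.38. HDAC5 had the highest log2 difference of them (0.78), and HDAC1 the lowest (-0.58).

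**Figure D4:**
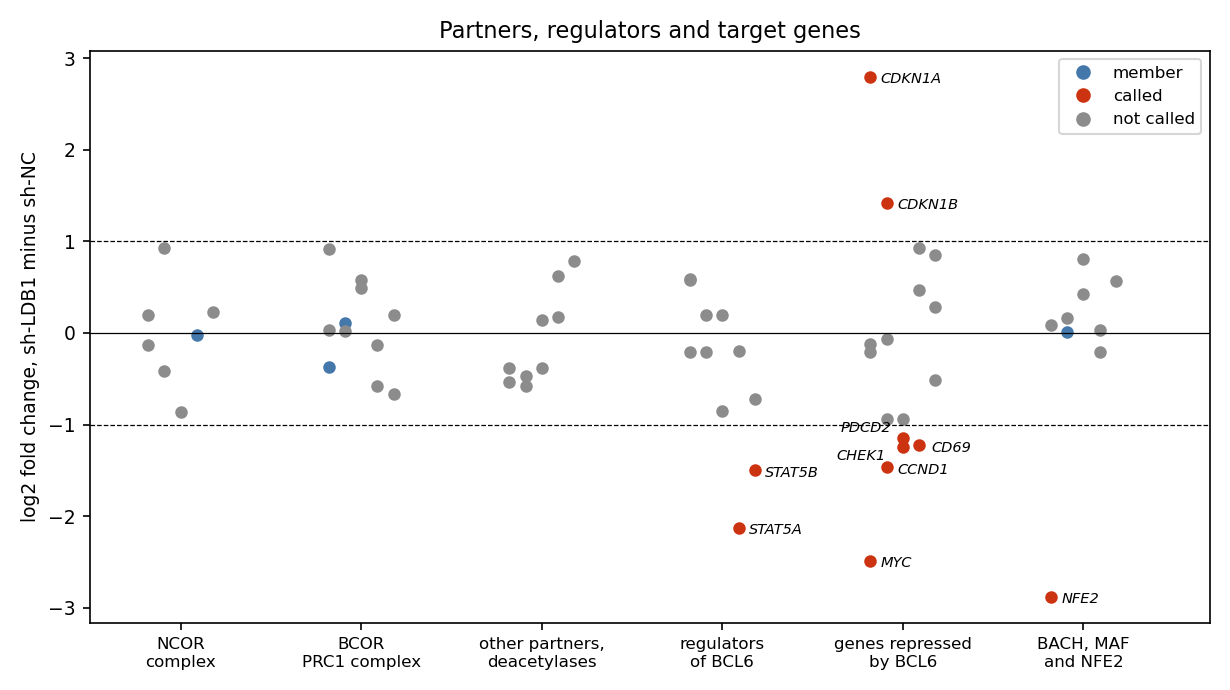
Log2 difference (sh-LDB1 minus sh-NC) of each tested gene in 6 lists; blue points are genes of the BCL6 group, red points called genes and grey points genes not called, and dashed lines mark a fold change of 2. The corepressor lists lie between the dashed lines, and the called genes are among the regulators, the genes repressed by BCL6 and the BACH relatives.

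Among the regulators of BCL6, 11 genes were tested, of which 0 were called higher and 2 lower, beside 9.5% and 10.3% of all genes. The median was -0.21. IRF4 and IRF8, also regulators, were not listed with values. Both called genes were STAT5 genes, which act downstream of cytokine receptors and are known to repress BCL6 in lymphocytes. STAT5A was at 67.9 and 67.2 FPKM under sh-NC, against 14.8 and 14.6 FPKM under sh-LDB1 (log2 difference -2.13, limma adjusted p = 6.77e-05). STAT5B was at 42.2 and 44.2 FPKM against 15.6 and 13.6 FPKM (-1.50, limma adjusted p = 0.000209). The knockdown libraries of both genes lay below the controls. The summed FPKM of STAT5A and STAT5B was 38.6 and 37.9 times that of BCL6 in sh-NC and 0.942 and 0.877 times in sh-LDB1. By adjusted p alone, 3 regulators were higher and 6 lower, beside 29.9% and 37.4% of all genes. Of these, named after their values were seen, STAT3 was lower (-0.85, limma adjusted p = 0.000222) and STAT6 higher (0.59, limma adjusted p = 0.000812). Neither STAT3 nor STAT6 was called. The part of STAT5 or of any other regulator in the level of BCL6 was not tested.

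Genes described as repressed by BCL6 in lymphocytes did not move in 1 direction while BCL6 was high. Of 17 tested, 2 were called higher and 5 lower, beside 9.5% and 10.3% of all genes, and the median was -0.21. CDKN1A, the cell cycle inhibitor p21, was at 3.22 and 3.98 FPKM under sh-NC, against 30.7 and 31.0 FPKM under sh-LDB1 (log2 difference 2.80, limma adjusted p = 0.000106). MYC, the growth regulator, was at 159 and 161 FPKM against 27.3 and 28.1 FPKM (-2.49, limma adjusted p = 6.77e-05). CCND1, a G1 cyclin, was at 20.9 and 19.4 FPKM against 6.85 and 6.43 FPKM (-1.47, limma adjusted p = 0.00015). Each of these had arms that lay well apart. The other called genes, named after their values were seen, were CDKN1B (1.42), a relative of p21, and CHEK1 (-1.25), CD69 (-1.23) and PDCD2 (-1.15) on the log2 scale, of which PDCD2 lost its call with equal summed FPKM (-0.98). By adjusted p alone, 5 were higher and 9 lower, against 29.9% and 37.4% of all genes.

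BACH2 relatives, the small MAF partners and heme oxygenase gave 9 tested genes, of which 0 were called higher and 1 lower, beside the same 9.5% and 10.3% of all genes, with a median of 0.08. The called gene was NFE2, an erythroid activator that pairs with the small MAF proteins. NFE2 was at 163 and 153 FPKM under sh-NC, against 20.2 and 21.0 FPKM under sh-LDB1 (log2 difference -2.88, limma adjusted p = 6.77e-05). Without the members of the BCL6 group, the 6 lists together had 59 tested genes, with 2 called higher and 8 lower, beside 9.5% and 10.3% of all genes. The count called higher was 6 with equal summed FPKM, 4 with quantile scaling and 4 without sh-NC replicate 1, where 7, 8 and 9 were called lower.

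BCL6 and BCL6B belong to the BTB zinc finger family. Of 43 BTB zinc finger genes 36 were tested, and the median log2 difference was 0.20. Without BCL6 and BCL6B, 34 were tested, and 4 were called higher and 1 lower, beside 9.5% and 10.3% of all genes. As a description, since BCL6 chose the group, BCL6 had the highest and BCL6B the lowest log2 difference of the 36. ZBTB18, a repressor of neuronal and muscle genes, was next to BCL6, at 2.01 and 2.88 FPKM under sh-NC, against 21.5 and 19.8 FPKM under sh-LDB1 (log2 difference 2.66, limma adjusted p = 0.000213). ZBTB41 followed with 2.40 and 2.76 against 9.08 and 8.39 FPKM (1.44, limma adjusted p = 0.000278). The remaining calls, named after their values were seen, were ZBTB22 (1.38), ZBTB12 (1.20) and ZBTB2 (-1.02), and ZBTB2 lost its call under both scalings (-0.88 and -0.95), without sh-NC replicate 2 (-0.96) and without sh-LDB1 replicate 2 (-0.89). In the PRDM family of PRDM1, 5 of 11 genes were tested and 0 were called, beside 19.8% of all genes. By adjusted p alone 0 were higher and 2 lower, beside 29.9% and 37.4% of all genes, and the median was -0.38.

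**Figure D5:**
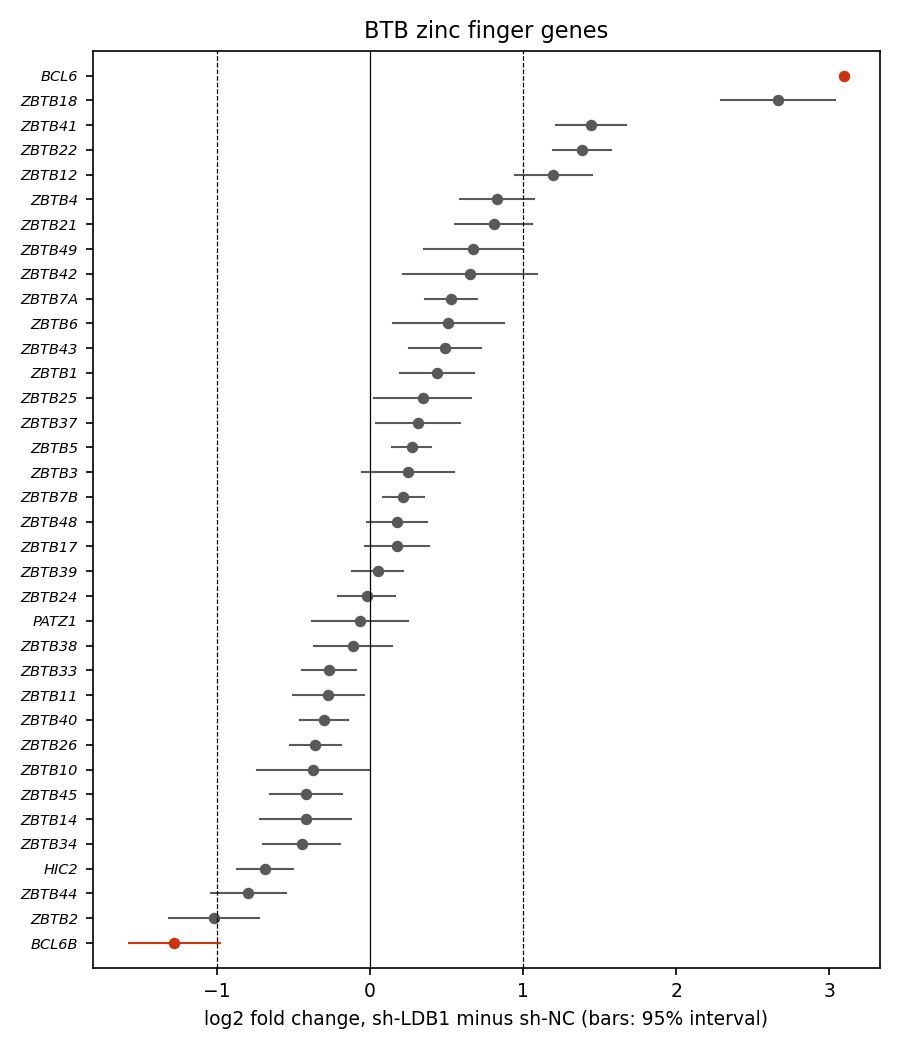
Log2 difference (sh-LDB1 minus sh-NC) of the 36 tested BTB zinc finger genes in order, with bars for the 95% interval from the fit across all genes; red marks BCL6, shown without an interval, and BCL6B. BCL6 is at 3.10 and BCL6B at -1.28, at the 2 ends of the family.

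The genes whose levels were most like those of BCL6 over the 4 libraries were found by the root mean square difference in log2(FPKM + 1), among 13299 genes. RCN3, a calcium-binding protein of the endoplasmic reticulum, was nearest (0.146), at 2.63, 3.73, 30.6 and 31.1 FPKM in the 2 sh-NC and then the 2 sh-LDB1 libraries. CDKN1A followed (0.188), then NES (0.198), DNAJB2 (0.247) and SLC17A5 (0.248). In all, 18 genes lay within 0.5 of BCL6.

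The nearest tested coding gene on each side of each member was also read, at distances from 5.7 kb to 3583 kb. RPL39L, on one side of BCL6 at 540 kb, had a log2 difference of -0.05 (limma adjusted p = 0.780). CCDC50, on the other side at 3583 kb, was called lower, at -1.34. Beside BCL6B, SLC16A13 was called higher at 1.07 (0.97 and not called without sh-NC replicate 1), while RNASEK stood at 0.76 and was not called, although it was with pseudocounts of 0.1 (1.14) and 0.01 (1.21) and with voom (1.19). CENPV, at 124 kb from NCOR1, was called lower at -2.12. The remaining neighbours of BACH2, PRDM1, BCOR, BCORL1 and NCOR1 were not called, with log2 differences between -0.97 and 0.82. The lowest of them, UTP14A beside BCORL1, was called with pseudocounts of 0.1 (-1.06) and 0.01 (-1.07), with voom (-1.07) and without sh-LDB1 replicate 2 (-1.03).

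Some reads may be counted for more than 1 gene. The gene ENSG00000285938 lies on the plus strand of chromosome 3 from 187743686 to 187746028, opposite to the start of BCL6, and 316 of its 1144 exon bases are also BCL6 exon bases. It was at 0.972 and 1.90 FPKM under sh-NC, against 19.8 and 14.5 FPKM under sh-LDB1, from 18 and 32 against 363 and 251 reads, and so both arms lay in the same order as those of BCL6. Whether strand was used in counting is not given in the sources used here, and reads of the pair then cannot be told apart. NCOR1 shares 321 exon bases with PIGL, 188 with ENSG00000227782 and 340 with TTC19, all on the opposite strand. TTC19 was at 9.04 and 8.68 FPKM under sh-NC, against 5.12 and 4.95 FPKM under sh-LDB1. Of 16234 windows of 50 bases in NCOR1 exons, 207 (1.28%) also occurred in genes elsewhere, its pseudogenes included, and what this adds to the NCOR1 level was not tested. BACH2 had 10 such windows of 11134, and the other 5 genes had 0.

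Summed levels of markers of other blood cells also differed between the arms. The 7 monocytic markers summed to 6.24 and 5.94 FPKM under sh-NC, against 25.1 and 24.9 FPKM under sh-LDB1, with 5 of the 7 under 1 FPKM in every library and LYZ, the lysozyme gene, the highest. Both that were tested, LYZ and ITGAM, were called higher, beside 9.5% of all genes tested. CD68, which was not tested, went the other way, from 0.141 and 0.062 FPKM under sh-NC to 0 under sh-LDB1. ITGAM, an integrin of myeloid cells named after its values were seen, was at 0.0217 and 0.0596 FPKM against 4.89 and 4.94 FPKM (log2 difference 2.51). ITGAM passed the minimum mean of 1 FPKM only through its sh-LDB1 libraries. A marker so low in sh-NC could be tested only if it was higher in sh-LDB1, so nothing is read from the count of monocytic calls. Of the B cell markers, PAX5, the B cell identity factor, was listed at 0 in 3 libraries. The 3 plasma cell markers summed to 24.8 and 26.4 FPKM against 38.4 and 39.2 FPKM, nearly all of it XBP1. The 3 T follicular helper markers summed to 2.34 and 1.75 FPKM against 12.95 and 14.1 FPKM, most of it PDCD1. The part of these markers, and of the erythroid ones, in the levels of BCL6, BCL6B and PRDM1 was not tested.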

How the data were processed

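RNA-seq of 2 sh-NC and 2 sh-LDB1 libraries was used. Reads were aligned by the authors with HISAT2 2.0.5 to hg38 per the submitters' processing notes, and the deposited values are FPKM. The counting tool, the annotation and the use of strand are not given in the sources used here. The authors made their own calls with DESeq2, which needs counts and was not run on FPKM.

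Values were taken as log2(FPKM + 1), filtered at a mean of 1 FPKM, and tested with limma 3.58.1 (R 4.3.3; moderated variance with trend), with Benjamini-Hochberg adjustment over 13300 genes. A call needed an adjusted p under 0.05 and a fold change above 2 or below 0.5. Whole reads were recovered for 27998 genes (98.5%) from the steps of the FPKM values, with a tolerance of 0.02 reads, and were used for depth and for voom; intervals cover the spread between libraries. On simulated data for sh-LDB1 against sh-NC, with 13149 genes tested, calls with the correct sign were made for 192 of 200 changed genes, and calls of either sign for 12 of 12949 unchanged ones. Of the 28412 genes, 28193 matched GENCODE 44. Replicates correlated at 0.985 (sh-NC) and 0.984 (sh-LDB1) and were not duplicates. Replicate numbers did not pair the libraries.

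The members and gene lists were chosen with earlier results of these data known. Named were LDB1, the members, up to 3 called genes per list or family with the largest change, the 5 nearest profiles, and genes beside or overlapping members. Alternatives were another pseudocount, filter, scaling, fold threshold, voom weights, the replicate block and leaving out each library. Protein sequences were not analysed here. Some genes of the lists are not reported here.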

Additional observations from a re-analysis of the deposited data

How the results depend on the processing

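With no fold threshold, 3983 genes were higher and 4978 lower, and 19 list genes were higher and 25 lower. Testing against the fold threshold itself gave 568 and 581 genes and 1 of the group. A minimum mean of 5 FPKM gave 710 higher genes and 1 called gene of the group, since BCL6B is removed by it. Equal summed FPKM moved the median of all genes from -0.08 to 0.06 and the share of lower calls from 52.0% to 38.5% (46.8% with quantile scaling, 58.3% with the minimum of 5 FPKM). List genes called higher then numbered 6, and 4 with quantile scaling. The log2 difference of BCL6 was 3.44 and 3.48 with pseudocounts of 0.1 and 0.01, 3.16 with quantile scaling, 3.24 with equal summed FPKM and 3.48 with voom. BACH2 turned to -0.0902 with quantile scaling, and NCOR1 to 0.0925 with quantile scaling and 0.14 with equal summed FPKM. BCORL1 passed at 0.20 with quantile scaling and 0.25 with equal summed FPKM. The cause was not tested.

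Leaving out 1 library at a time gave 1251 to 1289 higher and 1352 to 1430 lower genes, 2 to 4 list genes higher (4 without sh-NC replicate 1) and 8 to 9 lower. BCL6 then ranged from 3.08 to 3.11, BCL6B from -1.40 to -1.15, BCOR from -0.41 to -0.33, BCORL1 from 0.098 to 0.11, BACH2 from -0.0392 to 0.0588 and NCOR1 from -0.058 to 0.021. The replicate block gave 1274 higher and 1386 lower genes, left BCL6 at 3.10 and BCL6B at -1.28, and changed no call of the group; the correlation of replicate differences between the arms was 0.0196. Depth limits PRDM1 most, with 36 to 114 reads.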
